A study of Sus scrofa with 33 samples.

Results

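The comparison described here set the pituitary of F1 crossbred pigs against that of Creole pigs. Its members were the 11 arrays titled F1 and the 11 titled Creole, 22 of the 33 arrays of the series, chosen by the breed in the array title. The other 11 arrays were of Large White (LW) pigs, the breed that was crossed with Creole to give the F1. All pigs were castrated males, brought into the climatic room at 11 weeks of age and killed either under thermoneutral conditions (TN, labelled 24 °C) or after exposure to heat (HS). The labels give 30 °C for HS, while the description of the series speaks of 5 days at 32 °C. The F1 arrays were 6 TN and 5 HS, and the Creole arrays were 5 TN and 6 HS. Each array held Cy3-labelled RNA of 1 gland, without pooling, on an Agilent porcine oligonucleotide array, and values are log2 intensities after quantile normalization. The part of the gland that the paper describes as sampled is the anterior lobe. Per the methods of the study, each breed consisted of 3 litters of 4 littermates. The 11 arrays of a breed therefore include littermates. The labels do not tie arrays to litters, so litter was not in the model. The P-values measure the spread between these arrays and treat them as independent, which littermates are not. Pigs were penned by breed, with 4 pens per breed. The labels do not give the pen of an array, so pen was not in the model. Which of the 2 breeds was the dam of the F1 pigs is not given in the sources used here.

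The anterior pituitary is made of endocrine cells that each secrete 1 or a few peptide hormones, among them growth hormone, prolactin, corticotropin, thyrotropin and the gonadotropins, under the control of releasing hormones from the hypothalamus and of feedback from the target glands. Between them lie folliculostellate cells, a dense network of capillaries and some connective tissue. Each animal of an F1 cross received 1 copy of each autosomal gene from each parental breed, while mitochondrial DNA is passed on by the dam only.

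The hormone genes that define the tissue were at the top of the intensity scale on both sides. GH1, PRL, POMC and CGA had median log2 levels of 18.89 to 19.07 in F1 and in Creole. Between 73.5% and 82.2% of the spots of an array were well above background. In a principal component analysis of the 22 arrays, component 1 held 17.89% of the variance, and breed accounted for 55.6% of it. Array CR TN 1 stood apart on component 2, with a score of -71.4, and array F1 HS 3 lay on the Creole side of component 1, with a score of -22.0. F1 HS 4 and F1 TN 3 scored -3.4 and -2.9 on component 1, beside -3.2 for CR TN 4, the highest Creole array. On F1 HS 3 the KIT level was 10.07, within the range of the other F1 arrays. The arrays lay on 5 slides. Component 3, with 10.42% of the variance, was the one with the largest share by slide among the first 6 components, 73.3%.

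**Figure D1:**
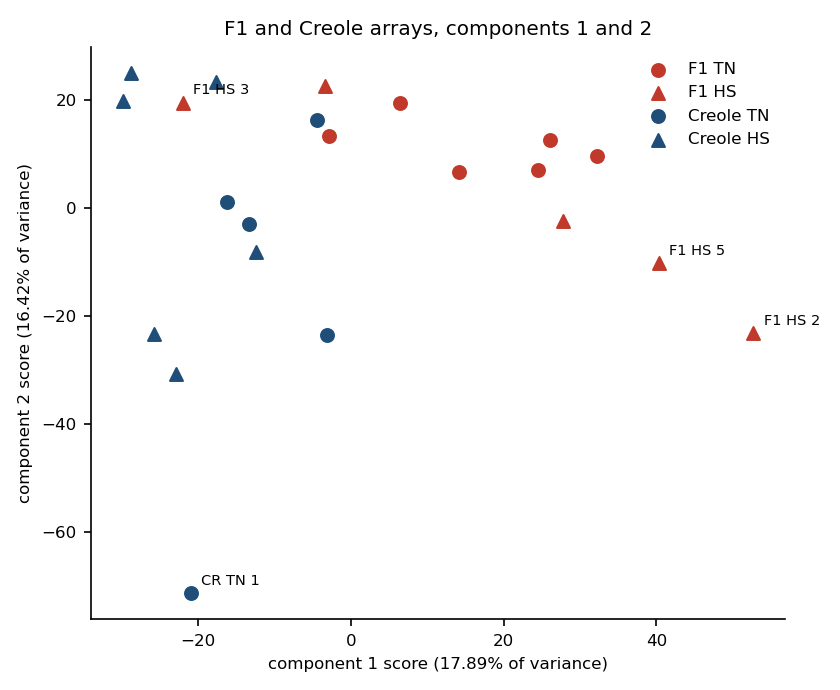
Scores of the 11 F1 and 11 Creole arrays on principal components 1 and 2, one point per array, by breed (colour) and temperature (marker); axes are component scores with their share of the variance. Most F1 arrays lie to the right of the Creole arrays, F1 HS 3 lies at -22.0 on component 1 and CR TN 1 at -71.4 on component 2.

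With temperature in the model, 2411 of 45667 probes (5.28%) passed the adjusted threshold of 0.05 (limma, Benjamini-Hochberg over all probes). Of these, 1284 probes (2.81%) were higher and 1127 (2.47%) were lower in F1 than in Creole. The probes that passed carried 887 gene names, and their median absolute log2 difference was 0.39 against 0.088 over all probes. An absolute log2 difference above 1 was reached by 82 of them, 44 higher and 38 lower in F1. Only 57 probes (0.125%) passed the threshold and separated all 11 F1 from all 11 Creole arrays without overlap, 45 higher and 12 lower in F1. The count depended on single arrays. It was 3318 without F1 HS 3, 1555 without F1 HS 1, 1520 without F1 HS 2 and 3067 without both CR TN 1 and F1 HS 3. It was 1522 when LW HS 3, whose title names Large White and whose breed field names Creole, was counted as Creole. On LW HS 3 the log2 level of KIT was 10.91, within the LW range of 10.46 to 11.34 and above the highest Creole array at 9.61, and that of ODF3B was 9.18 against 7.10 on the highest Creole array.

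ODF3B, which encodes a protein named for the outer dense fibres of the sperm tail, showed the largest difference among named genes whose arrays did not overlap. Its log2 level was 7.55, 9.38 and 9.88 (lowest, median and highest) on the F1 arrays and 6.25, 6.62 and 7.10 on the Creole arrays. The difference was 2.39 ± 0.22, 5.24-fold (adjusted P = 6.62e-07), where here and below a difference is F1 minus Creole on the log2 scale ± SE (n = 11 and 11). F1 HS 4 and F1 HS 3 gave the lowest F1 values, 7.55 and 7.75, yet stayed above every Creole array. The gene had a single probe, so the difference could not be compared with another probe.

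KIT encodes the receptor of stem cell factor and is known in pigs for its part in white coat colour. Its log2 level was 10.01, 10.17 and 10.36 on the F1 arrays and 8.91, 9.30 and 9.61 on the Creole arrays. The difference was 0.89 ± 0.08, 1.86-fold (adjusted P = 4.71e-07), and the 3 other KIT probes passed in the same direction. The 2 breeds formed narrow, separate bands, and the LW arrays lay above both at 10.90 ± 0.28 (SD, n = 11). F1 was lower than LW by 0.73 on the log2 scale (adjusted P = 3.39e-05), so that F1 held a level between those of the parental breeds. KDR, the neighbour of KIT on chromosome 8 and the main receptor of vascular endothelial growth factor, was also higher in F1, by 0.60 ± 0.14 (adjusted P = 0.018), but its F1 range of 9.05 to 9.92 overlapped the Creole range of 8.16 to 9.50. Its 2 other probes did not pass.

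CD55, a surface protein that protects cells from complement, was at 10.13, 10.33 and 10.79 in F1 and at 9.14, 9.49 and 9.82 in Creole, a difference of 0.81 ± 0.09 (adjusted P = 2.58e-05). C4H8orf37 was at 8.82, 9.22 and 9.36 in F1 and at 7.62, 8.53 and 8.81 in Creole, a difference of 0.93 ± 0.14 (adjusted P = 0.000467). MAN1A1, a mannosidase that trims N-glycans in the Golgi, was at 9.60, 9.77 and 9.97 in F1 and at 8.15, 9.20 and 9.33 in Creole, a difference of 0.71 ± 0.11 (adjusted P = 0.000903). In each of these genes the F1 arrays all lay above the Creole arrays, and the other probes of the gene passed in the same direction. LTF, the iron-binding lactoferrin, lay at 8.29 to 9.15 in F1 against 7.16 to 8.29 in Creole, with the lowest F1 array just above the highest Creole array. Its difference was 0.69 ± 0.13 (adjusted P = 0.0035).

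On the lower side, 4 named genes separated the arrays. LZTFL1, a cytoplasmic regulator of protein traffic to the cilium, was at 9.89, 11.13 and 11.67 in F1 and at 11.71, 12.22 and 12.52 in Creole, a difference of -1.23 ± 0.21 (adjusted P = 0.00173). The 2 breeds came close to each other, F1 spread more widely than Creole, and the gene's other probe did not pass. SRPX, a sushi-repeat protein, lay at 6.90 to 7.93 in F1 and at 7.93 to 9.34 in Creole, a difference of -1.03 ± 0.16 (adjusted P = 0.00068). All 4 of its probes passed.

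KCTD9, a potassium channel tetramerization domain protein, lay at 6.76 to 7.73 in F1 and, just above, at 7.73 to 8.42 in Creole, a difference of -0.91 ± 0.12 (adjusted P = 0.000141), but its 2 other probes did not pass. C3, the central component of complement, lay at 7.27 to 7.87 in F1 and at 7.87 to 8.78 in Creole, a difference of -0.62 ± 0.10 (adjusted P = 0.000864). All 6 C3 probes passed, with a median difference of -0.76. The 2 complement genes of this group thus moved in opposite directions, the inhibitor CD55 higher and C3 lower in F1.

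**Figure D2:**
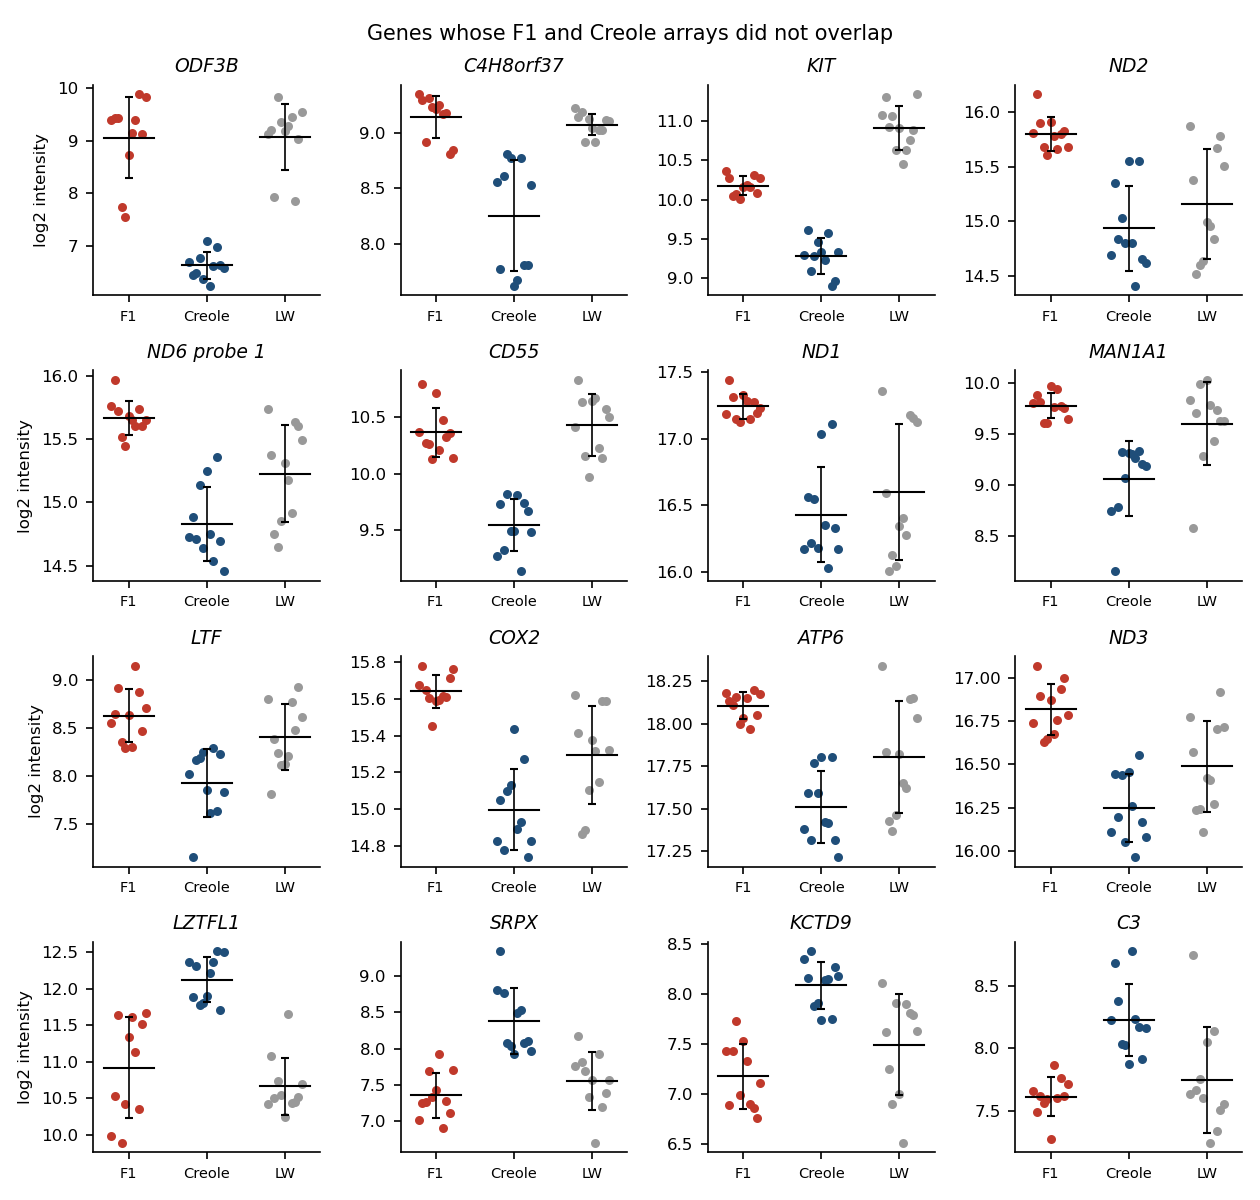
Log2 intensity on every array (points) with the mean (line) and SD (error bar) of each breed for 16 genes whose F1 and Creole arrays did not overlap, the 12 largest of 17 higher in F1 and all 4 lower, one panel per gene on its named probe, with LW beside them. In all panels the F1 and Creole points are apart, for example 10.01 to 10.36 against 8.91 to 9.61 for KIT, and the width of the gap differs between genes.

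Of the 12 named genes with the largest differences among those higher in F1 without overlap, 6 carry the name of a gene of the mitochondrial DNA. Mitochondrial genes encode subunits of the respiratory chain (ND for complex I, CYTB for complex III, COX for complex IV) and of ATP synthase (ATP6, ATP8). This group was taken up after its values had been seen, and its probes were counted by the gene name in the files, without regard to strand. Of its 128 probes over 13 genes, 88 were higher and 1 was lower in F1, so 69.5% passed beside 5.28% of all probes, and 10 higher probes did not overlap, as was the case for 57 of all 45667 probes (0.125%). By gene, 19 of 20 ND1 probes, 12 of 13 ND2, 14 of 25 COX1, 3 of 5 COX2, 8 of 9 ATP6, 10 of 14 COX3, 2 of 3 ND3, 3 of 3 ND5, 14 of 21 CYTB and the 1 ATP8 probe were higher. ND4, with 1 of 11, and ND4L, with 0 of 1, were at medians of 0.001 and -0.032. The spread between probes of 1 gene was wide, from -0.03 to 2.05 for COX1 and from -0.27 to 1.78 for ND1, and the genes were not tested against each other. Probes on the same strand read a small number of long transcripts, so they are not independent of each other. A COX1 probe at 0.09 and an ND2 probe at 0.22 match the opposite strand of another probe of their gene. Both are in these counts and in the mean over the 128 probes.

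Most probes of a gene that overlapped gave similar differences. Of 88 pairs that shared at least 20 bases on the same strand, 49 differed from each other by less than 0.1 on the log2 scale, the median was 0.081, and 10 differed by more than 0.5. The sequences below are of 5 of those 10 pairs, chosen after their values were seen because they share bases and yet differ in value. They are the 60-base probes of the array design, written 5′ to 3′. Capitals mark the longest unbroken stretch that both probes of a pair share. It is 32 bases for COX2, 31 for ND2, 43 for the first ND1 pair, 21 for COX1 and 25 for the second ND1 pair. Bases in lower case can match between the probes of a pair as well, beyond a changed or missing base. The first of each pair is the one with the larger difference.
COX2 probe 1: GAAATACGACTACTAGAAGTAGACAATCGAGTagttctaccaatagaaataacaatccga
COX2 probe 2: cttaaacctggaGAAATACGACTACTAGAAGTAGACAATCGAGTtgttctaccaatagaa
ND2 probe 1: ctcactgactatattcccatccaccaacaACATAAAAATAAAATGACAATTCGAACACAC
ND2 probe 2: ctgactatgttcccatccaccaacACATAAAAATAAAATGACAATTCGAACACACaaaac
ND1 probe 1: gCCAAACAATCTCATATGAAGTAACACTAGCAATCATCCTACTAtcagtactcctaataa
ND1 probe 2: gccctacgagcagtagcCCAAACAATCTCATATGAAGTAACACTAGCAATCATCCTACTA
COX1 probe 1: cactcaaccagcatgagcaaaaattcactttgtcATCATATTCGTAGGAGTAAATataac
COX1 probe 2: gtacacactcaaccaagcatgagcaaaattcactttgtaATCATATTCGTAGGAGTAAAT
ND1 probe 3: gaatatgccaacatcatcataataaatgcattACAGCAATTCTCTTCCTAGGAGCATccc
ND1 probe 4: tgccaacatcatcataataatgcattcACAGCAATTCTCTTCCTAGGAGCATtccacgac

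COX2 probe 1 was at 15.79, 16.07 and 16.25 in F1 and at 11.42, 13.64 and 15.96 in Creole, a difference of 2.32 ± 0.45 (adjusted P = 0.00481). COX2 probe 2 was at 17.17, 17.30 and 17.40 in F1 and at 16.31, 16.63 and 17.11 in Creole, a difference of 0.59 ± 0.07 (adjusted P = 7e-05). The F1 arrays were close together on both probes, and the Creole arrays spread over more than 4 log2 units on the first. Probe 1 overlapped because CR TN 3 at 15.96 and CR HS 5 at 15.92 lay among the F1 arrays.

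The ND1 and ND2 pairs had the same form. ND1 probe 1 was at 14.66 to 15.21 on all 11 F1 arrays. On the Creole arrays it was at 12.11 to 13.12 on 9 arrays and at 14.87 and 14.89 on CR TN 3 and CR HS 5. The LW arrays also fell into a low part, 7 arrays at 12.04 to 13.19, and a high part, LW TN 1, LW TN 5, LW HS 5 and LW HS 6 at 14.87 to 15.10. No F1 array lay in the low part of this probe.

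The difference was 1.78 ± 0.26 for ND1 probe 1 (adjusted P = 0.00035) and 0.96 ± 0.14 for ND1 probe 2 (adjusted P = 0.00028). For ND2 it was 1.995 ± 0.29 on probe 1 (adjusted P = 0.00032) and 0.94 ± 0.15 on probe 2 (adjusted P = 0.00086). Of the COX1 pair, probe 1 gave 2.05 ± 0.34 (adjusted P = 0.00125) and probe 2, which was near the top of the scale, 0.18 ± 0.05 (adjusted P = 0.037). On probe 1 of COX2, ND2 and COX1 too, CR TN 3, CR HS 5 and the same 4 LW arrays were the highest of their breed. The second ND1 pair differed in sign, with 0.41 ± 0.09 on probe 3 (adjusted P = 0.0129) and -0.27 ± 0.09 on probe 4 (adjusted P = 0.0838).

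Of the 2 probes that carry the name ND6, 1 was higher and 1 was lower in F1. They share no stretch of at least 20 bases and are printed to show how they differ in composition. As background, ND6 is the only protein gene on the other strand of the mitochondrial DNA, and its transcript is rich in G and poor in C, unlike those of the other protein genes. Probe 2 has the composition of the ND6 transcript and probe 1 that of the opposite strand, so the values of probe 1 are given for the probe and not as a level of ND6. Neither probe was placed on a genome.
ND6 probe 1: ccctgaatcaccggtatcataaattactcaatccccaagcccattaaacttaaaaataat
ND6 probe 2: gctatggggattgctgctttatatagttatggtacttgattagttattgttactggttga
ND6 probe 1, with 28.3% C and 6.7% G, was at 15.44, 15.65 and 15.97 in F1 and at 14.46, 14.73 and 15.36 in Creole, a difference of 0.83 ± 0.09 (adjusted P = 2.91e-05). ND6 probe 2, with 8.3% C and 26.7% G, was at 7.71, 7.98 and 8.24 in F1 and at 7.88, 8.79 and 9.25 in Creole, a difference of -0.76 ± 0.14 (adjusted P = 0.00318). On the second probe CR TN 3 at 7.88 and CR HS 5 at 8.02 were the lowest Creole arrays, as they had been the highest on the first.

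Averaged over the 128 mitochondrial probes, the log2 level per array was 16.34, 16.49 and 16.61 in F1 (lowest, median and highest) and 15.82, 16.02 and 16.41 in Creole. The 2 highest Creole arrays were CR HS 5 at 16.41 and CR TN 3 at 16.34. LW spread over both ranges, from 15.86 to 16.51. The count of mitochondrial probes past the threshold stayed between 80 and 93 when each array was left out in turn. Over the other alternatives it ran from 73, with LW HS 3 counted as Creole, to 102 with the processed signal. Within TN 24 of the 128 probes passed and within HS 46, beside 0.563% and 0.469% of all probes. Without CR TN 1 and F1 HS 3 these counts were 2 in TN and 72 in HS. Of the nuclear genes of the respiratory chain and ATP synthase, 3 of 70 were higher in F1 (NDUFA9, ATP5O and NDUFV3) and 1 was lower (COX5A), with a list median of 0.032. NDUFV3 lost the call in 16 of the 22 fits without 1 array, with slide as a block (adjusted P = 0.0585) and with the processed signal (adjusted P = 0.0510). Against all named genes by their brightest probe, where 605 of 10068 (6.01%) passed with a median of 0.016, the nuclear share of 5.71% was near the background. The dam's breed was not available for the mitochondrial values, and its part in them was not tested.

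**Figure D3:**
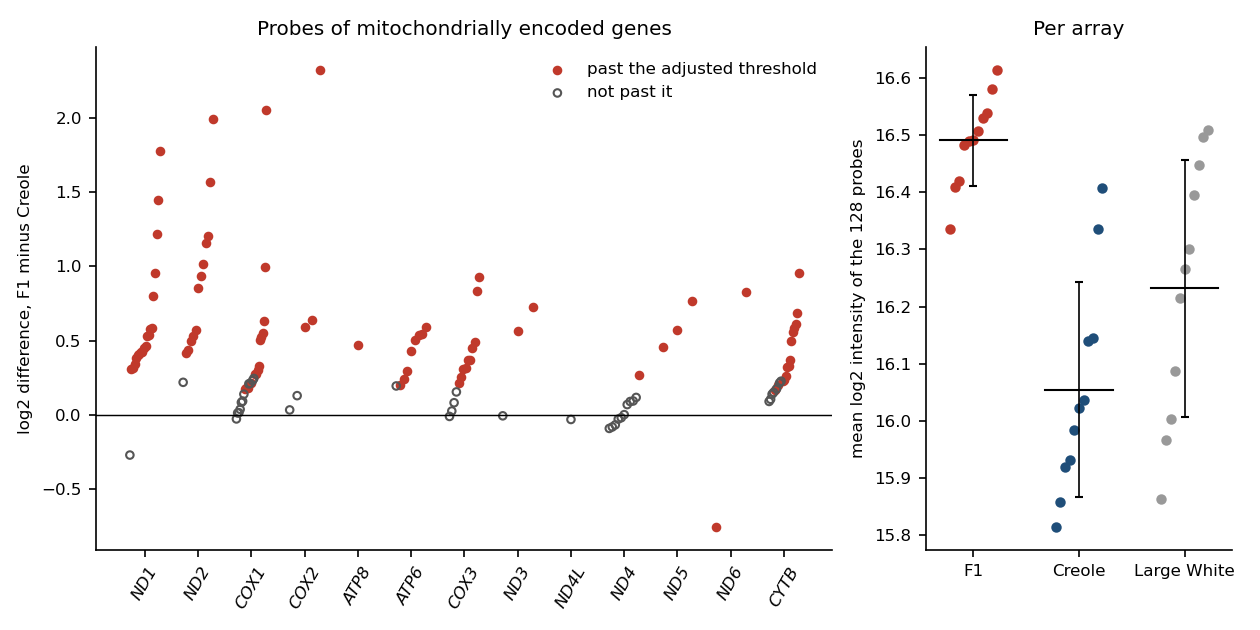
Left, log2 difference of F1 minus Creole for each of the 128 probes that carry the names of the 13 mitochondrially encoded protein genes, filled where past the adjusted threshold; right, mean log2 intensity of those probes on each array by breed, with the mean (line) and SD (error bar). Differences reach 2.32 for COX2 and lie near 0 for ND4, and on the right CR HS 5 lies in the F1 range and CR TN 3 at its lower edge.

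Of the 2285 genes with 3 or more probes, 372 had at least 1 probe past the threshold and 223 had exactly 1. In 27 genes (1.18%) every probe passed in 1 direction, 8 higher and 19 lower in F1. The higher ones were OAZ3, LTF, MAN1A1, KIT, ND5, CNTN5, CREB1 and MIF. The lower ones were PCOLCE2, APOD, SRPX, PTN, COL21A1, NLGN3, C3, GRIA3, ANXA1, CCL2, MATN2, MGP, SELENOF, GPX4, FABP1, DCN, PON2, BTG3 and EEF1A1, of which those beyond the 8 with the lowest median are named after their values were seen. As background, COL21A1 is a collagen, DCN the proteoglycan decorin, MGP matrix Gla protein, MATN2 matrilin, PCOLCE2 an enhancer of procollagen processing, PTN the growth factor pleiotrophin, APOD a lipid carrier, CCL2 a chemokine, FABP1 a fatty acid binding protein, PON2 a paraoxonase and BTG3 an antiproliferative protein. No enrichment was tested. Probes of a gene read the same RNA and were not all distinct. The 3 NLGN3 probes had 1 sequence, and the 3 probes each of OAZ3, MIF and CCL2 had 2. SRPX, C3, PCOLCE2, ANXA1, GPX4 and BTG3 also had fewer sequences than probes.

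PCOLCE2 had the lowest median over its 5 probes, -1.19. Its probe nearest that value was at 7.47, 9.01 and 10.41 in F1 and at 9.93, 10.55 and 11.04 in Creole, a difference of -1.19 ± 0.28 (adjusted P = 0.0171). The 4 F1 arrays F1 TN 1, F1 HS 3, F1 HS 4 and F1 TN 3 lay inside the Creole range, from 10.12 to 10.41, and the other 7 lay below it. APOD was at 8.39, 8.98 and 10.40 in F1 and at 9.41, 9.90 and 11.05 in Creole, a difference of -1.08 ± 0.21 (adjusted P = 0.00479). Only F1 TN 3, at 10.40, overlapped the Creole arrays.

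PTN was at 8.82, 9.45 and 10.63 in F1 and at 9.77, 10.36 and 11.35 in Creole, a difference of -0.86 ± 0.20 (adjusted P = 0.0163). COL21A1 was at 7.61, 8.31 and 8.62 in F1 and at 8.53, 9.11 and 9.48 in Creole, a difference of -0.82 ± 0.14 (adjusted P = 0.00145). NLGN3, a postsynaptic adhesion protein, was flat in F1 at 5.94 to 6.25, while 9 Creole arrays lay at 6.84 to 7.36 and CR HS 4 and CR HS 3 at 5.86 and 5.96. Its difference was -0.81 ± 0.14 (adjusted P = 0.00219). GRIA3, a glutamate receptor subunit, lay at 7.82 to 8.95 in F1 against 8.19 to 9.85 in Creole, a difference of -0.81 ± 0.16 (adjusted P = 0.00409). The 21 probes of EEF1A1, an elongation factor of translation, had differences of -0.76 to -0.25 with a median of -0.36.

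Among the genes with all probes higher, OAZ3, an antizyme of polyamine metabolism, had the largest median, 1.24. It was at 8.26, 9.75 and 10.74 in F1 and at 7.94, 8.13 and 8.60 in Creole, a difference of 1.27 ± 0.29 (adjusted P = 0.0129). Here F1 HS 4, F1 HS 5, F1 HS 3 and F1 TN 3 lay within the Creole range and the other 7 F1 arrays lay above it. CNTN5, a neural adhesion protein, CREB1, the cAMP-responsive transcription factor, and MIF, a cytokine also stored in pituitary cells, differed less, by 0.41 ± 0.10, 0.22 ± 0.06 and 0.20 ± 0.06 (adjusted P = 0.0269, 0.028 and 0.0474). MIF no longer passed without CR TN 1 and F1 HS 3 (adjusted P = 0.0797). Of the 22 fits without 1 array, MIF lost the call in 17, CREB1 in 3 and CNTN5 in 1.

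Of 7 genes of secreted pituitary hormones 0 passed on their brightest probe and 1 had an unadjusted P under 0.05, LHB, which passed with the processed signal (a difference of 0.37, adjusted P = 0.0486). Of all named genes 6.01% passed and 23.1% had an unadjusted P under 0.05, so 0 and 1 of 7 do not set these genes apart. GH1 was at 18.94 to 19.07 in F1 and at 19.02 to 19.12 in Creole, a difference of -0.05 ± 0.04, PRL differed by 0.02 ± 0.05, POMC by -0.01 ± 0.03 and CGA by 0.06 ± 0.04 (adjusted P = 0.408, 0.812, 0.948 and 0.458). These 4 genes lay near the top of the intensity scale. LHB and FSHB, the gonadotropin beta subunits, differed by 0.22 ± 0.10 and 0.26 ± 0.13 (adjusted P = 0.207 and 0.241), and another FSHB probe passed in the same direction.

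TSHB, the beta subunit of thyrotropin, was at 14.56, 15.38 and 16.20 in F1 and at 10.57, 15.86 and 16.34 in Creole, a difference of -0.10 ± 0.48 (adjusted P = 0.941). The lowest Creole value came from CR TN 1, with the next at 15.46. Without CR TN 1 and F1 HS 3, TSHB was lower in F1 by 0.67 on the log2 scale and passed (adjusted P = 0.0279).

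FOXL2, a transcription factor of gonadotrophs, was at 11.85, 12.16 and 12.23 in F1 and at 10.63, 11.80 and 11.94 in Creole, a difference of 0.44 ± 0.12 (adjusted P = 0.0304). Only F1 TN 1, at 11.85, lay within the Creole range. GNRHR, the receptor of gonadotropin-releasing hormone, was at 12.001, 13.20 and 13.60 in F1 and at 11.89, 12.42 and 12.93 in Creole, a difference of 0.62 ± 0.15 (adjusted P = 0.0181), and F1 HS 3 gave the lowest F1 value.

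ESR1, the oestrogen receptor that mediates feedback, was at 9.70, 10.06 and 10.36 in F1 and at 9.35, 9.53 and 10.05 in Creole, a difference of 0.45 ± 0.08 (adjusted P = 0.0036). NR5A1 and GATA2, transcription factors of the same lineage, had differences of 0.46 ± 0.14 and 0.29 ± 0.10 that did not pass (adjusted P = 0.0539 and 0.0808). Of the 15 lineage transcription factors tested, 2 were higher in F1, FOXL2 and PITX1 (0.23 ± 0.06, adjusted P = 0.0317), and 0 were lower, with a list median of 0.087. PITX1 did not pass with the processed signal (adjusted P = 0.0695) or without CR HS 1, F1 HS 2, CR HS 2 or F1 TN 2, and FOXL2 did not pass without CR HS 1 or F1 TN 4. Of 25 releasing-hormone and feedback receptors, 2 were higher, GNRHR and ESR1, and 0 were lower, with a median of 0.024. These shares of 13.3% and 8% rest on a pair of genes each, beside 3.47% of all named genes that were higher in F1.

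Among 20 genes of the secretory granule, 2 were higher in F1, 10% beside 3.47% of all named genes. RAB27B, a small GTPase of granule release, was at 9.09, 9.56 and 10.12 in F1 and at 8.29, 8.87 and 9.37 in Creole, a difference of 0.69 ± 0.14 (adjusted P = 0.00617). PCSK1N, an inhibitor of prohormone convertase, differed by 0.24 ± 0.06 (adjusted P = 0.0241) but not without CR TN 1 and F1 HS 3 (adjusted P = 0.0541). Of 12 glucocorticoid-responsive genes, 2 were lower in F1, 16.7% beside 2.54% of all named genes, and the list median was 0.010. MT1A, a metallothionein, was at 9.28, 10.26 and 11.42 in F1 and at 10.32, 11.25 and 12.24 in Creole, a difference of -1.12 ± 0.23 (adjusted P = 0.00676), but its 2 other probes did not pass. ANXA1, which mediates glucocorticoid feedback on corticotropin release, was at 10.07, 11.08 and 11.26 in F1 and at 11.21, 11.54 and 12.14 in Creole, a difference of -0.67 ± 0.13 (adjusted P = 0.00546), with all 9 probes passing. The other members, among them FKBP5 at 0.004 ± 0.12 (adjusted P = 0.991) and KLF9 at 0.010 ± 0.09 (adjusted P = 0.966), did not pass.

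Of 12 pigmentation genes, KIT was higher and EDN3 was lower, 16.7% beside 6.01% of all named genes that passed. EDN3, a ligand of the endothelin receptor of melanocyte precursors, lay at 5.48 to 6.16 in F1 against 6.10 to 7.18 in Creole, a difference of -0.80 ± 0.12 (adjusted P = 0.000417), near the low end of the scale and well above background on 10 of the 11 F1 arrays. Of 16 production trait genes 2 were higher (12.5% beside 3.47% of all named genes), ESR1 and RYR1, the calcium release channel of muscle known for the halothane trait (0.46 ± 0.09, adjusted P = 0.0053). The 3 other RYR1 probes did not pass.

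The antigen presentation, interferon-stimulated and heat shock lists had 3.85%, 6.25% and 4.65% of their members past the threshold, near the 6.01% of all named genes. SLA-6 of the swine MHC was the only 1 of 26 antigen presentation genes that passed, at 6.20 to 7.31 in F1 against 6.96 to 8.02 in Creole, a difference of -0.75 ± 0.14 (adjusted P = 0.00329). Of 32 interferon-stimulated genes, XAF1 was higher by 0.63 ± 0.15 (adjusted P = 0.0183) and CXCL10, a chemokine, was lower with a difference of -0.99 ± 0.25 (adjusted P = 0.0253). CXCL10 did not pass without F1 HS 1 or without F1 HS 2. The list as a whole had a median of 0.124, with 30 members that did not pass. Among 43 heat shock proteins and co-chaperones, CRYAB was higher by 0.68 ± 0.19 (adjusted P = 0.0382, and 0.0522 without CR TN 1 and F1 HS 3) and HSPA4 was lower with a difference of -0.69 ± 0.15 (adjusted P = 0.0117).

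Of 44 antioxidant genes, PRDX5, a peroxiredoxin, was higher by 0.23 ± 0.06 (adjusted P = 0.0177), and the selenoproteins SELENOP, SELENOF and GPX4 were lower, in all 9.09% of the list beside 6.01% of all named genes. Of the 3 lower genes SELENOP alone also passed with slide as a block and with the processed signal (adjusted P = 0.0131 and 0.0154). SELENOF had 0.0641 and 0.143, and GPX4 0.0502 and 0.141, and they lost the call in 12 and 13 of the 22 fits without 1 array. SELENOP, the selenium carrier, was at 11.97, 12.61 and 13.33 in F1 and at 12.98, 13.43 and 14.15 in Creole, a difference of -0.79 ± 0.16 (adjusted P = 0.00556). GPX4, which reduces lipid peroxides, was at 13.52, 14.21 and 14.86 in F1 and at 14.57, 14.65 and 14.81 in Creole, a difference of -0.44 ± 0.12 (adjusted P = 0.0397). The Creole arrays were tightly grouped for GPX4, F1 HS 3 lay inside their range, F1 TN 1 lay above it at 14.86 and the other 9 F1 arrays lay below it.

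Of 70 cytosolic ribosomal proteins, RPL17 was higher and RPS27A, RPS9, RPL7 and RPL6 were lower, with differences of -0.46 ± 0.11 for RPS27A and -0.24 ± 0.07 for RPS9 (adjusted P = 0.0163 and 0.0389), in all 7.14% of the list beside 6.01% of all named genes. Without CR TN 1 and F1 HS 3 the list had 1 higher and 9 lower members. RPS9 had an adjusted P of 0.0508 there and lost the call in 13 of the 22 fits without 1 array. RPL6, RPL17 and RPL7 lost it in 19, 17 and 16 fits. With slide as a block the list had 0 higher and 6 lower members, so RPL17 did not pass. None of the 70 passed with the processed signal, under which the list median turned from -0.036 to 0.056 and RPL6 turned from -0.18 to 0.014. Of 16 clock genes NR1D2, a circadian repressor, was lower with a difference of -0.34 ± 0.10 (adjusted P = 0.0427, and 0.0841 without CR TN 1 and F1 HS 3), which is 6.25% of the list, near the 6.01% of all named genes. NR1D2 lost the call in 14 of the 22 fits without 1 array, with slide as a block (adjusted P = 0.0644) and with the processed signal (adjusted P = 0.0617). A positive difference was found in 4 of the 16, beside 5566 of all 10068 named genes. None of the 16 genes of the insulin-like growth factor axis and none of the 25 cell cycle genes passed in limma, and 4 and 0 of them had an unadjusted P under 0.05, beside 23.1% of all named genes.

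**Figure D4:**
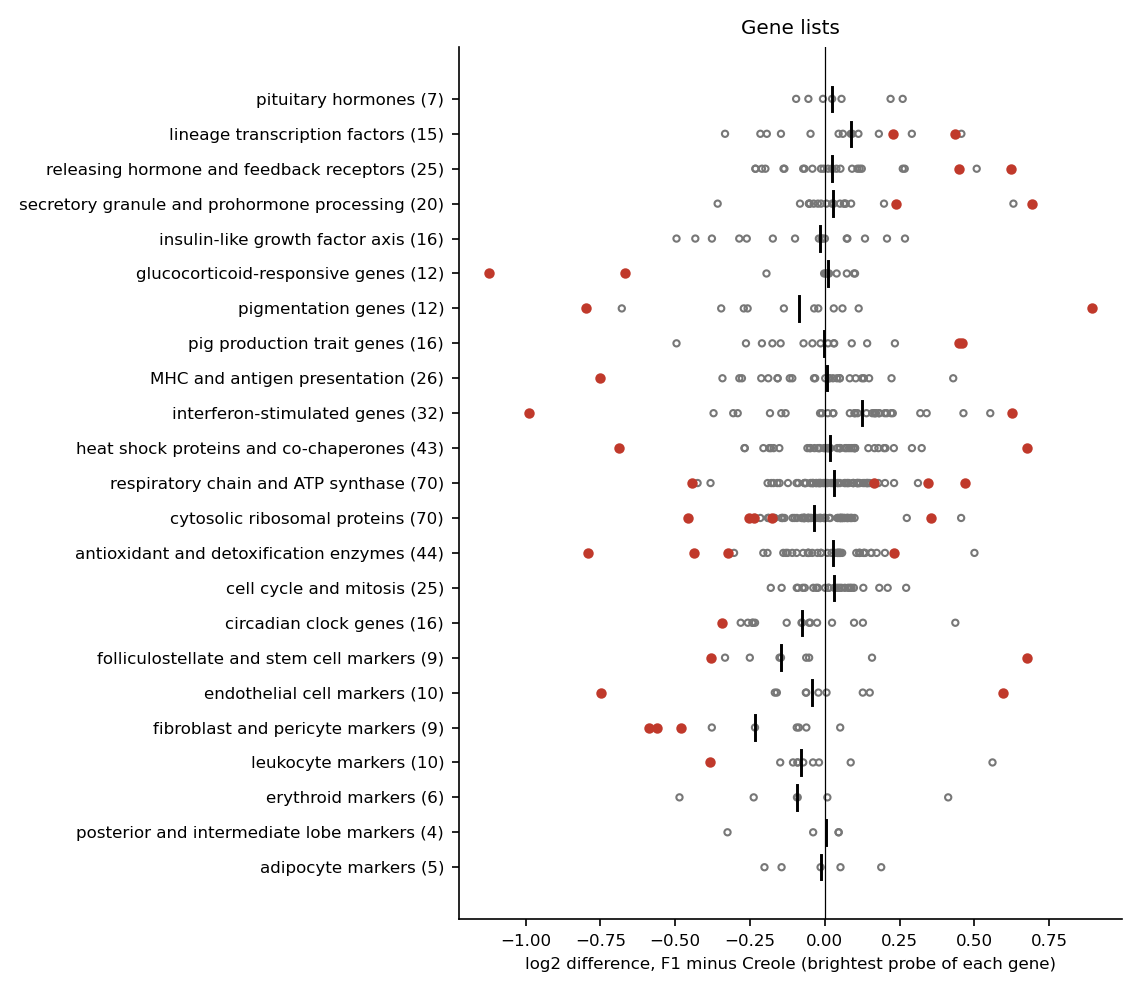
Log2 difference of F1 minus Creole for the brightest probe of each member (points, filled where past the adjusted threshold) and the median (bar) of each gene list and marker list, with the number of members tested in parentheses. List medians lie near 0, with the fibroblast and pericyte markers lowest at -0.233.

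Markers of the other cells of the gland were compared in the same way. In bulk tissue, fewer cells of a type and less RNA per cell cannot be told apart. Of 9 fibroblast and pericyte markers, 3 were lower in F1 (33.3%, beside 2.54% of all named genes), 0 were higher and 8 of 9 had a negative difference. COL1A2, a chain of type I collagen, was at 11.16, 11.70 and 11.998 in F1 and at 11.77, 12.23 and 12.86 in Creole, a difference of -0.59 ± 0.10 (adjusted P = 0.00146). Of its 4 probes, 2 passed. COL3A1, of type III collagen, differed by -0.56 ± 0.12 (adjusted P = 0.0109), and DCN by -0.48 ± 0.14 (adjusted P = 0.0466), the latter not passing without CR TN 1 and F1 HS 3 (adjusted P = 0.102). DCN also lost the call in 17 of the 22 fits without 1 array. CR TN 1 was the highest Creole array of COL1A2, COL3A1 and DCN. With the processed signal, 2 of the 9 markers were lower. COL1A1, at -0.38 ± 0.17, and PDGFRB, at -0.09 ± 0.13, did not pass (adjusted P = 0.194 and 0.739). The mean level of the list was 10.81, 11.03 and 11.17 in F1 and 10.97, 11.24 and 11.63 in Creole, with overlapping ranges. The part of these markers in the differences of COL21A1, DCN and MGP was not tested.

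Of 9 folliculostellate and stem cell markers, CRYAB was higher and S100B was lower with a difference of -0.38 ± 0.11 (adjusted P = 0.0448), 22.2% of the list beside 6.01% of all named genes, and 2 of the 9 differences were positive (list median -0.147). Neither passed with slide as a block (adjusted P = 0.0616 and 0.0542), and they lost the call in 12 and 17 of the 22 fits without 1 array. Of 10 endothelial markers, 4 had a positive difference (list median -0.042). KDR was higher and TEK, the angiopoietin receptor, was lower with a difference of -0.75 ± 0.20 (adjusted P = 0.0305), so that 20% of the list passed beside 6.01% of all named genes, while PECAM1, VWF and CDH5 had differences of -0.06, -0.02 and -0.06 that did not pass. F1 HS 4, F1 HS 3, F1 TN 3 and F1 TN 6 lay inside the Creole range of TEK, 2 of its 4 probes passed, the differences of all 4 ran from -0.75 to 0.13, and the call was lost in 7 of the 22 fits without 1 array. Of 10 leukocyte markers, CSF1R was lower with a difference of -0.38 ± 0.09 (adjusted P = 0.0194), 10% of the list beside 2.54% of all named genes that were lower, and PTPRC, carried by all leukocytes, did not pass (-0.07 ± 0.11, adjusted P = 0.761), and 2 of the 10 differences were positive (list median -0.081). CSF1R did not pass with the processed signal (adjusted P = 0.0506). None of the 6 erythroid, 4 posterior and intermediate lobe or 5 adipocyte markers passed in limma, and 1, 0 and 0 of them had an unadjusted P under 0.05. With 6.01% of all named genes past the threshold and 23.1% at an unadjusted P under 0.05, lists of this size say little.

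Within TN, 257 probes (0.563%) differed between F1 and Creole, 161 higher and 96 lower, and within HS 214 (0.469%), 129 higher and 85 lower. The 2 contrasts share no array, but they share a variance estimate. Per the methods of the study, the pigs of a pen came from different litters and whole pens were killed at either temperature. The same litters were thus in both contrasts, and their agreement is not that of unrelated animals. Of the 257 TN calls, 245 had the same direction in HS and 191 of them an unadjusted P under 0.05 there. Of the 214 HS calls, 209 had the same direction in TN and 166 of them an unadjusted P under 0.05. Over all probes 62.1% had the same direction. The difference between the HS and the TN contrast passed for 0 probes (0%) in limma, 1899 had an unadjusted P under 0.05 and the smallest adjusted P was 0.891.

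Single arrays moved both counts. The TN count was 85 without CR TN 4, 90 without CR TN 1, 118 without F1 TN 2 or F1 TN 6, 121 without F1 TN 5, 127 without F1 TN 1 and 159 without F1 TN 4. The HS count was 2906 without F1 HS 3 and 773 without F1 HS 4, and it was 327 without CR TN 1, 135 without CR HS 3, 108 without F1 HS 5 or CR HS 6, 87 without CR HS 4, 84 without CR HS 2, 63 without CR HS 1, 61 without F1 HS 1 and 41 without F1 HS 2. Leaving out both CR TN 1 and F1 HS 3 gave 72 probes in TN and 3514 in HS.

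Of the named genes, KIT had the same difference at both temperatures, 0.91 in TN and 0.88 in HS, and ODF3B had 2.76 and 2.02. LZTFL1 was at -0.61 in TN and -1.85 in HS, a difference between contrasts of unadjusted P = 0.0017 that did not pass adjustment (0.891). The smallest unadjusted P belonged to 2 probes of TCHP, a keratin-binding centrosomal protein, and to PHYH, a peroxisomal enzyme that begins the breakdown of branched fatty acids. TCHP was at -0.35 in TN and 0.44 in HS on its first probe and at -0.31 and 0.45 on the second. PHYH was at 0.99 in TN, where its 6 F1 arrays at 9.51 to 9.88 all lay above the 5 Creole arrays at 8.64 to 8.88, and at -0.15 in HS, where F1 spread from 8.10 to 9.50. The adjusted P was 0.891 for all of them.

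**Figure D5:**
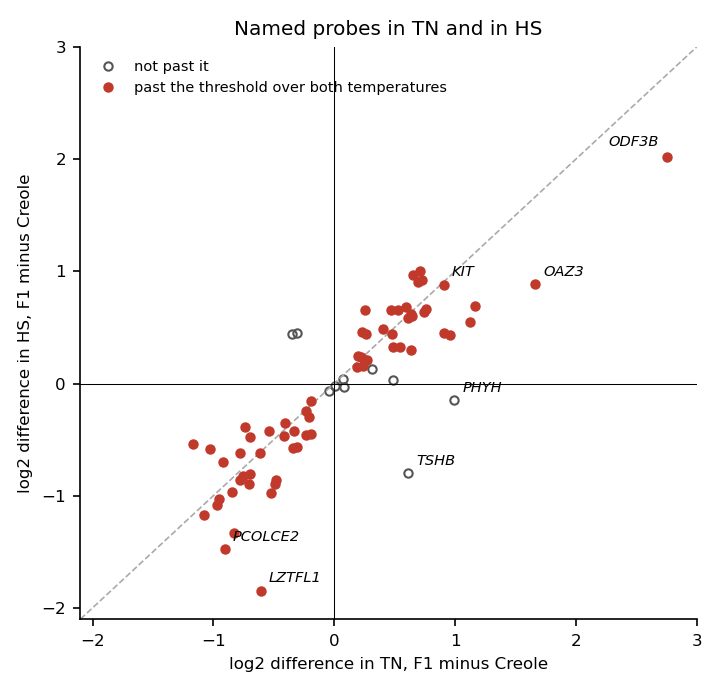
Log2 difference of F1 minus Creole in TN (horizontal) against HS (vertical) for the 75 named probes, filled where past the adjusted threshold over both temperatures, with the line of equality dashed. KIT (0.91 and 0.88) lies near the line, and ODF3B (2.76 and 2.02), LZTFL1 (-0.61 and -1.85) and PHYH (0.99 and -0.15) lie away from it.

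F1 against LW, which shares the F1 arrays with this comparison, gave 674 probes (1.48%), 251 higher and 423 lower in F1. Set side by side, the log2 difference of ODF3B was 2.39 against Creole and -0.05 against LW (adjusted P = 0.963), that of CD55 0.81 and -0.07 (adjusted P = 0.845) and that of COL1A2 -0.59 and -0.03 (adjusted P = 0.952). KIT stood at 0.89 and -0.73, and OAZ3 at 1.27 and -1.10 (adjusted P = 0.0625). ND2, on the probe without overlap, stood at 0.86 against Creole and 0.63 against LW (adjusted P = 0.0308), ND1 at 0.80 and 0.63 (adjusted P = 0.0243), COX2 at 0.64 and 0.34 (adjusted P = 0.0396) and TEK at -0.75 and -0.72 (adjusted P = 0.0298). The LW arrays were split on this ND1 probe. LW TN 1, LW HS 5, LW HS 6 and LW TN 5, at 17.13 to 17.36, lay within the F1 range of 17.12 to 17.44. The other LW arrays lay at 16.01 to 16.59. The same LW arrays were the highest of their breed on the ND2 probe, at 15.51 to 15.88. The other mitochondrial probes shown without overlap against Creole did not pass against LW: ND6 probe 1, which has the composition of the opposite strand, stood at 0.83 and 0.43 (adjusted P = 0.0578), ND3 at 0.56 and 0.32 (adjusted P = 0.0513) and ATP6 at 0.59 and 0.29 (adjusted P = 0.119).

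Placed in the order of genes along the chromosomes of a reference annotation (Sscrofa11.1, used for gene order only), 584 of 9781 genes passed and 28 runs of 2 or more neighbouring tested genes passed in the same direction. The 3 runs of 3 genes were ARHGAP10, EDNRA and SLC10A7 on chromosome 8, with differences of 0.24 to 0.32, IFRD2, HYAL3 and NAT6 on chromosome 13, with 0.25 to 0.72, and NTRK2, SLC28A3 and HNRNPK on chromosome 10, with -0.61 to -0.26. Pairs of neighbours with the same direction included KIT and KDR as well as UBA6 and GNRHR on chromosome 8, and FOXL2 with ESYT3 on chromosome 13. These runs were found after the values had been seen and are given as a description. How many runs a random order of genes would give was not worked out, so their count says nothing on shared regulation.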

How the data were processed

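The deposited scanner files held the spot and background intensity per the file headers, read by Agilent Feature Extraction 10.10.1.1. The authors took the median pixel intensity, applied quality control and quantile normalization without background correction and deposited log2 values of 45667 probes, which were used as deposited. Own quantile normalization of the same intensity differed from them by a median of 0.00376. Probes were named by the gene name in the scanner files (18898 probes), or by accession (2015) or synonym (161) in a table of pig genes. Differences between F1 and Creole were tested two-sided with limma 3.58.1 in R 4.3.3 (breed and temperature, 22 arrays), with Benjamini-Hochberg adjustment over all probes. TN, HS and their difference came from group means of the same arrays. F1 against LW used all 33 arrays. The step was tested on simulated data. Breeds were taken from the array titles.

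Named were the largest differences without overlap (12 per direction), the genes with all of at least 3 probes passing (8 per direction), the hormones, up to 4 passing members per list and direction, and the 3 smallest P-values for the difference between temperatures. Lists were read by the brightest probe of a gene. The members, lists and rules were chosen with earlier results of these data known. The alternatives covered the samples, slide, array weights, background correction, normalization and filter. Intensities over background, not read depth, and the number of arrays limit the precision. Large White arrays were used as a side value and in 2 alternatives, the fit of all 33 arrays and the one that counted LW HS 3 as Creole.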

Additional observations from a re-analysis of the deposited data

Results flagged for a closer look

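Arrays were compared with the others of their breed and temperature for each named probe, and an array was listed where its gap to the rest exceeded Dixon's 95% critical value. Of 300 groups tested, 18 were listed, and chance gives about 1 in 20. CR HS 5 accounted for 5 of them and CR TN 1 for 4.

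CR HS 5 was at 7.81 for C4H8orf37 (others 8.53 to 8.78), 15.36 for ND6 probe 1 (14.46 to 14.73), 17.11 for ND1 (16.03 to 16.22), 6.10 for EDN3 (6.78 to 7.18) and 10.85 for NDUFV3 (11.36 to 11.60). CR TN 1 was at 8.15 for MAN1A1 (9.20 to 9.32), 9.85 for GRIA3 (8.58 to 8.77), 10.57 for TSHB (15.72 to 16.34) and 10.63 for FOXL2 (11.57 to 11.94). Other Creole arrays were CR TN 2 at 8.81 for C4H8orf37, CR HS 3 at 11.81 for LZTFL1 and CR TN 5 at 7.70 for XAF1.

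Of the F1 arrays, F1 HS 5 was at 8.82 for C4H8orf37 and 8.95 for GRIA3, F1 HS 2 at 17.44 for ND1, F1 TN 6 at 15.76 for COX2, F1 TN 1 at 11.85 for FOXL2 and F1 HS 3 at 14.83 for S100B.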

How the results depend on the processing

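Of the 2411 probes, 2074 also passed with slide as a fixed block and 1784 with the processed signal, of which 1 main call had the other direction. Counting LW HS 3 as Creole gave 1522. Leaving out each array gave 1520 to 3318 probes, 85 to 375 within TN and 41 to 2906 within HS. TN gave 417 with array weights and 157 from only its 11 arrays. HS gave 445 with all 33 arrays and 75 from only its 11 arrays. Without CR TN 1 and F1 HS 3, an alternative chosen after seeing the data, TN gave 72 and HS 3514. The difference between the temperatures passed for 0 probes with all 33 arrays, the slide block, array weights, the processed signal, each array left out in turn and both arrays left out. Of the 65 named probes past the threshold, 65 had the same sign within all 5 slides, 56 passed with the slide block, 51 with the processed signal and 61 with all 33 arrays. RPL6 reversed with the processed signal (0.014). Without each array in turn 46 of 65 passed in all 22 fits. The calls lost most often were those of RPL6 (19 fits), MIF, RPL17, S100B and DCN (17 each), NDUFV3 and RPL7 (16 each), NR1D2 (14), RPS9 and GPX4 (13 each) and ND5, CRYAB and SELENOF (12 each). Among the gene lists, the slide block gave 5 instead of 3 higher genes of the respiratory chain and 2 instead of 1 lower antigen presentation genes. It gave 0 higher and 6 lower ribosomal proteins instead of 1 and 4. The slide block and the processed signal each gave 2 instead of 1 higher antioxidant genes and 3 instead of 2 higher releasing-hormone and feedback receptors. The processed signal gave 4 higher genes of the respiratory chain and 2 instead of 3 lower fibroblast and pericyte markers. The cause of these shifts was not tested. No paired analysis was possible because the replicate numbers follow accession order and pair no samples. Between 95.1% and 99.6% of the tested probes of an array were well above background, and the log2 differences of low probes rest on few units over it.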
